A study of Mus musculus with 14 samples.

Results

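Gene expression was compared between C1qa knockout and wild-type mouse fetal liver in the spots of spatial transcriptomic sections that carried hepatocyte RNA. A Visium spot is a small area of a tissue section that holds several cells, and its RNA is counted by unique molecular identifiers (UMIs). Hepatocyte spots were taken from 4 fetal livers of a C1qa cross by a rule with 2 conditions. A spot had to lie in tissue with at least 1000 detected genes, and, as the spots were chosen by hepatocyte RNA, at least 0.5% of its UMIs had to come from 10 plasma protein genes: Alb, Afp, Apoa1, Apoa2, Ttr, Fgb, Fga, Ahsg, Serpina1a and Apob. The rule kept 4869 spots, out of 5943 in-tissue spots of these 4 livers and 17319 in-tissue spots of the 14 sections of the series.

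The embryos were offspring of C1qa heterozygous parents and were collected at embryonic day 14.5 (E14.5) without treatment. Each genotype had 2 embryos, 1 from each of 2 litters. Wild-type 2 (WT2) and C1qa knockout 2 (KO2) were littermates, as were wild-type 4 (WT4) and C1qa knockout 4 (KO4), so that the litter was used as a block in the comparison. The knockout is constitutive, so every cell of a knockout embryo carries it. Each embryo gave 1 formalin-fixed section and 1 library. Spleens of 3-month-old mice of the same cross, 2 wild type and 2 C1qa knockout, served as a second tissue with the same deletion.

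Fetal liver is both the main blood-forming organ of the midgestation embryo and the place where hepatoblasts mature into hepatocytes, which secrete albumin, apolipoproteins and clotting factors and take over urea, sugar and lipid metabolism. C1q is the recognition protein of the classical complement pathway. It is assembled from the chains C1qA, C1qB and C1qC, which are encoded by neighbouring genes and made mainly by macrophages, and it also binds dying cells and helps phagocytes to clear them. Red cell precursors mature around macrophages in erythroblastic islands, where the extruded nuclei are engulfed.

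The sections of litter 2 and litter 4 differed in size, depth and hepatocyte share. In litter 2, 2190 of 2320 WT2 spots with at least 1000 genes and 2073 of 2147 KO2 spots met the hepatocyte rule. In litter 4, 240 of 806 WT4 spots and 366 of 589 KO4 spots did. The median member spot held 8876.5 UMIs in WT2 and 5193 in KO2, but 68440.5 in WT4 and 30803.5 in KO4. The rule genes took a median of 10.0% of UMIs in WT2 spots, 5.08% in KO2 spots, 1.49% in WT4 spots and 1.44% in KO4 spots. Just inside the threshold, the lowest member share was 0.546% in WT2, 0.505% in WT4, 0.532% in KO2 and 0.500% in KO4, and the highest share just outside it was 0.345%, 0.459%, 0.495% and 0.495%. Few spots lay close to the threshold, with 1, 5, 2 and 7 members between 0.5 and 0.6% and 0, 7, 3 and 12 other spots between 0.4 and 0.5% in WT2, WT4, KO2 and KO4.

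**Figure D1:**
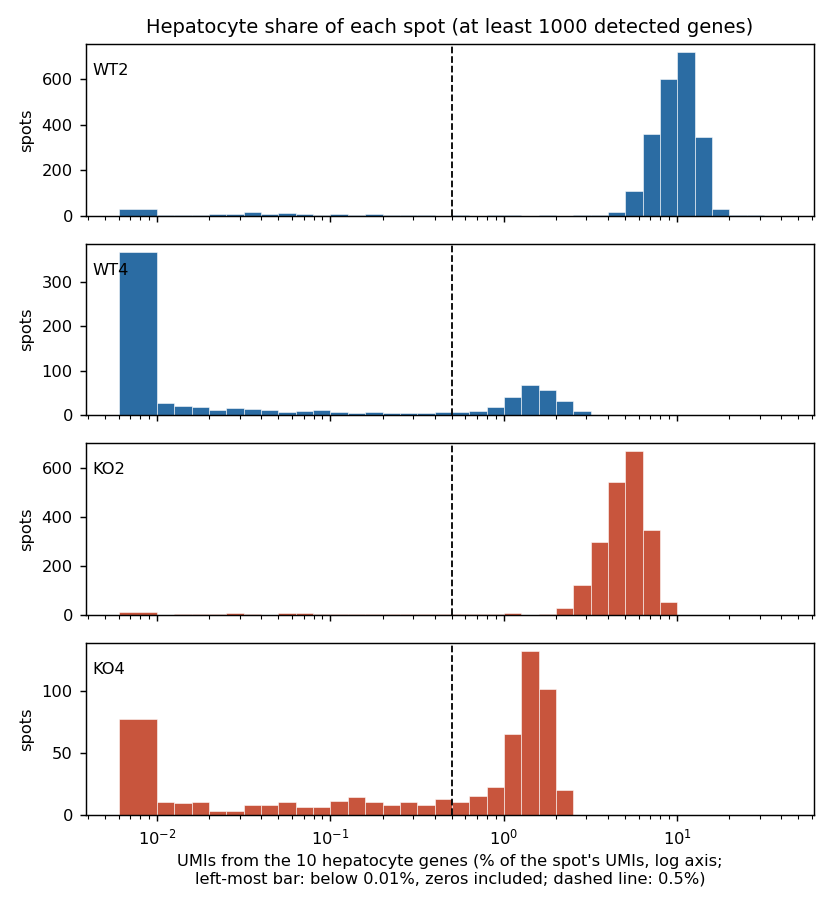
Number of spots (vertical axis) by the share of their UMIs from the 10 hepatocyte genes (horizontal log axis, %), for all spots with at least 1000 genes in WT2, WT4, KO2 and KO4. Blue marks wild type, red marks knockout, and the dashed line marks 0.5%; the left-most bar pools shares below 0.01%. Litter 2 has 1 main group of spots around the medians of 10.0% and 5.08%, and litter 4 has a group around 1.49% and 1.44% beside other spots with medians of 0.00604% in WT4 and 0.0286% in KO4.

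Beyond the rule genes, 36 further plasma protein genes made up 4.73% of UMIs in WT2, 0.813% in WT4, 2.35% in KO2 and 0.819% in KO4. The spots were not pure hepatocytes: the erythroid cell list took 18.4% of UMIs in WT2, 11.6% in WT4, 22.2% in KO2 and 10.3% in KO4, more than all these plasma proteins did in each liver. They are called hepatocyte spots by the rule alone. Within such mixed spots, fewer hepatocytes and less RNA per hepatocyte cannot be told apart. In the spots that missed the rule, genes of muscle, cartilage, nerve and other organs took a median of 14.3% of UMIs in WT2, 0.341% in WT4, 0.308% in KO2 and 0.179% in KO4, against 0.0292 to 0.0519% in member spots.

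Beside genotype, 2 further measures separated the embryos. The Y-linked gene Eif2s3y reached 65.1 CPM (UMIs scaled to a common library total) in KO2, 0.103 in WT2 and 0 in WT4 and KO4, and Ddx3y reached 45.2 CPM in KO2 against at most 0.0605 in the others. Only the KO2 embryo therefore carried Y-linked transcripts, and litter 2 compared embryos that differ in sex whereas litter 4 did not. Embryonic globins, the globins of primitive red cells, took 0.809% of UMIs in WT4, 0.0550% in KO4, 0.0130% in KO2 and 0.00654% in WT2. WT4 stood apart in this respect from its littermate and from both litter 2 livers. The part of either measure in the differences between genotypes was not tested.

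C1qa was lost in both knockouts, while C1qb and C1qc were still counted. In the summed counts of the hepatocyte spots, C1qa had 1906 UMIs in WT2 and 454 in WT4, and 1 UMI in each knockout. C1qa is located on chromosome 4 at 136895916 to 136898844 (mm10), with C1qc at 136889801 to 136892936 and C1qb at 136880126 to 136886200. Relative to all UMIs, C1qa in KO2 was at 0.0912% of its WT2 level, with a 95% counting interval of 0.00231 to 0.508%, and in KO4 at 0.305% of its WT4 level, with an interval of 0.00771 to 1.71%. These intervals cover counting error only. In CPM without further scaling, C1qb stood at 95.1 in WT2, 32.0 in WT4, 83.6 in KO2 and 28.2 in KO4. C1qc stood at 135.8, 34.7, 138.6 and 40.03 in the same order. The 95% counting interval of C1qb in KO2, 78.4 to 89.1, lay below that of WT2, 90.8 to 99.6, and those of litter 4 overlapped. With the TMM factors used below, C1qb read 127.5 in WT2, 28.5 in WT4, 101.7 in KO2 and 19.5 in KO4, lower in both knockouts.

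The sequences around the starts of C1qb and C1qc are shown because both genes retained their counts beside the deleted one. They run from 250 bases before to 50 bases after the start of transcription (RefSeq, GRCm38.p6, minus strand), at chr4:136886151-136886450 for C1qb and chr4:136892865-136893164 for C1qc. For C1qc the start used lies inside the gene span given above and not at its end. Capitals mark GAGGAA or its reverse complement TTCCTC, the core of sites bound by PU.1, a transcription factor of myeloid cells.
C1qb: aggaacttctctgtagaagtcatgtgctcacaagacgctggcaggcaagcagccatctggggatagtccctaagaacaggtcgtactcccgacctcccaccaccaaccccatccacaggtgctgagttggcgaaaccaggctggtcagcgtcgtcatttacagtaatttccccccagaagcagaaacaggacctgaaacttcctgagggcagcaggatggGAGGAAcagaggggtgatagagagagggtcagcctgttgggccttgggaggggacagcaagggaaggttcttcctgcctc
C1qc: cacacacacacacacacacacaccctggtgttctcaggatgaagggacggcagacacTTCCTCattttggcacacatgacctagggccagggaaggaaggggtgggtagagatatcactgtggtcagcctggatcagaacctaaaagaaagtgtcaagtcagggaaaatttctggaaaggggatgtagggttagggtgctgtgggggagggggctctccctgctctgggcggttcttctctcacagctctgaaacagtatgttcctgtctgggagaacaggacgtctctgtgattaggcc
Each holds 1 match on either strand, and 28.3% of the 32851 promoters of this length in the table hold at least 1. For C1qa the table gave no sequence.

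**Figure D2:**
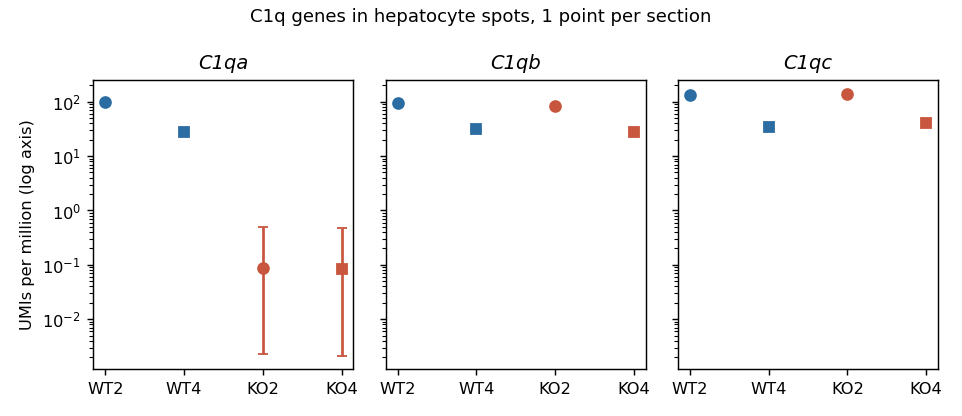
CPM, the UMIs scaled to a common library total (vertical log axis) of C1qa, C1qb and C1qc in the hepatocyte spots of WT2, WT4, KO2 and KO4, 1 point per section with 95% Poisson intervals. Circles are litter 2 and squares litter 4. C1qa lies below 0.1 in both knockouts, while C1qb reads 83.6 in KO2 against 95.1 in WT2 and 28.2 in KO4 against 32.0 in WT4, and C1qc lies slightly above the littermate in both knockouts.

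The share of hepatocyte spots with a C1qc UMI was 65.6% in WT2, 80.0% in WT4, 48.8% in KO2 and 69.9% in KO4. Depth differed between these spots, and after thinning each spot to 2000 UMIs the expected share was 23.2% in WT2, 6.79% in WT4, 23.8% in KO2 and 7.87% in KO4 (8 WT2 and 17 KO2 spots were too shallow). The thinned share of C1qa was 17.6% in WT2, 5.36% in WT4, 0.0120% in KO2 and 0.0208% in KO4. In the fit over all genes, C1qb differed by -0.44 ± 0.28 (SE) on the log2 scale (adjusted p = 0.955) and C1qc by -0.14 ± 0.30 (adjusted p = 0.957), so that neither passed the test. The sign of C1qc depended on the scaling: its log2 difference was 0.12 with library size alone and 0.03 with upper-quartile factors.

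In the edgeR fit with litter as block, 26 of 18371 genes tested passed an adjusted p of 0.05 (0.142%), 6 higher (0.0327%) and 20 lower (0.109%) in the knockout. Without the litter block, 1 gene passed, C1qa, and with 1 section left out 0 to 94 genes passed (0 without KO2 and 0 without KO4, 58 without WT2 and 94 without WT4). From here on, levels are CPM scaled by TMM factors, which correct for RNA composition, and differences are log2 of knockout over wild type. The 26 genes fell into 3 patterns. A few were shifted the same way in both litters, a larger group of hepatocyte enzymes was lower in KO2 than in WT2 while low in both sections of litter 4, and most of the rest were genes of other tissues that were high in 1 section. In all, 16 of the 26 had the same sign in both litters, 5 of them (C1qa, Mid1, Lyplal1, Gm9732 and Agxt) by at least 2-fold. Genotypes did not overlap for 7 of the 26 (21.5% of all genes tested), with C1qa, Mid1, Lyplal1 and Cpm below (7.83%) and Gm9732, Krt15 and Actg2 above (13.6%). With 1 residual degree of freedom, the spread of every gene came from the trend over all genes. The fit therefore cannot see that a single gene varies more between embryos than genes of its level do.

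**Figure D3:**
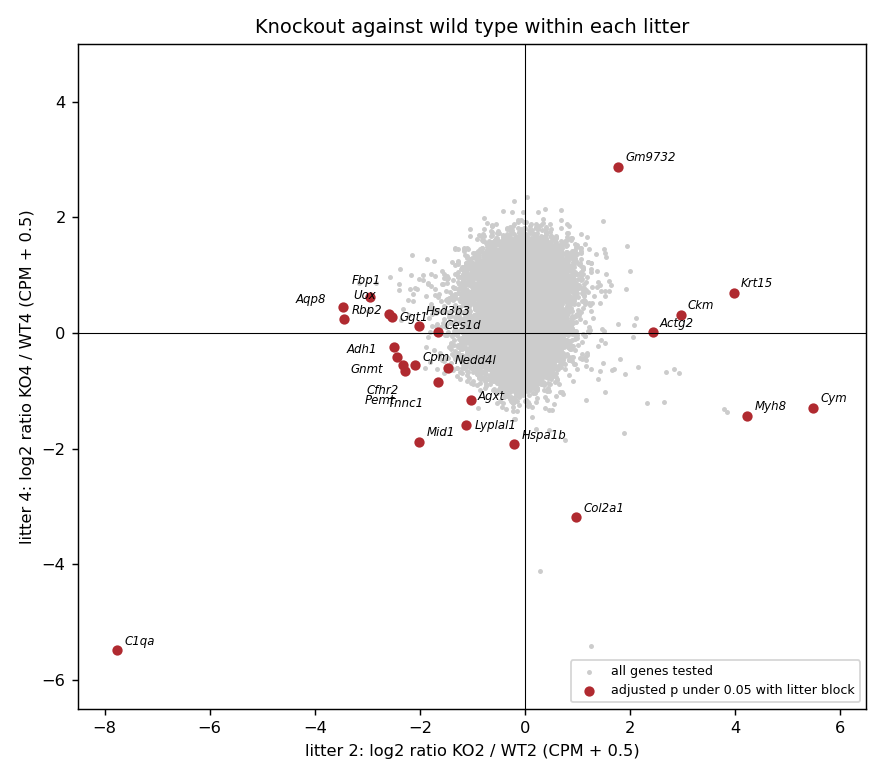
Log2 ratio of knockout to wild type in litter 2 (horizontal axis) and in litter 4 (vertical axis) for all 18371 genes tested (grey) and the 26 genes past an adjusted p of 0.05 (red). C1qa, Mid1, Lyplal1 and Agxt lie in the lower left and Gm9732 in the upper right, whereas Aqp8, Rbp2, Fbp1 and other hepatocyte enzymes lie far left near 0 on the vertical axis.

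Mid1, a ubiquitin ligase of the TRIM family that binds microtubules, was the most significant gene after C1qa. It is located on chromosome X at 169685199 to 169990798, at the edge of the pseudoautosomal region. Its level was 68.5 in WT2, 89.1 in WT4, 16.6 in KO2 and 23.8 in KO4. Both knockouts lay below both wild types, 3.92-fold in the fit (log2 difference -1.97 ± 0.28 SE, adjusted p = 9.49e-09). The difference was -2.01 in litter 2, where the embryos differed in Y-linked transcripts, and -1.88 in litter 4, where neither carried them. Outside the hepatocyte spots of the same sections it read 59.8 CPM in WT2, 152 in WT4, 33.2 in KO2 and 60.0 in KO4, without TMM factors. The call held under all 14 alternatives with the block, with log2 differences of -2.09 to -1.71, and was lost without the block.

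The spleens, which entered no part of the fetal liver fit, gave the same direction for Mid1. Wild-type spleens read 107.7 and 98.1 and knockout spleens 39.3 and 48.0. The log2 difference in spleen was -1.24 ± 0.21 SE (adjusted p = 6.20e-05 over 19104 genes) in a joint fit of both tissues that held litter within fetal liver as a term. It was -1.34 ± 0.16 with the spleens fitted alone (adjusted p = 3.48e-05), and did not pass without the litter term (adjusted p = 0.233). Calls in spleen were common: 13.0% of all genes passed in the joint fit, and 3886 of 18895 with the spleens alone. The spleens differed in depth. Wild-type spleen 2 was the shallowest, with 4225805 UMIs and a median of 2293.5 per spot. The other spleens had 10588736 to 19934060 UMIs and medians of 7846 to 13937.5. The part of depth in the spleen calls was not tested. All 4 spleens carried Y-linked transcripts, with Ddx3y at 63.4 to 121 CPM. The change in fetal liver exceeded that in spleen by -0.78 ± 0.30 on the log2 scale, which did not pass the test of the difference (adjusted p = 0.0740). Hepatocyte spots of purchased wild-type fetal livers, chosen by the same rule, measured with another probe table and not compared here, read 5.18 CPM at E14.5 and 2.03 CPM at E13.5.

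Lyplal1, a lysophospholipase-like hydrolase, was likewise lower in both litters. It stood at 21.7 in WT2, 24.3 in WT4, 9.65 in KO2 and 7.70 in KO4 (log2 difference -1.42 ± 0.26, adjusted p = 0.000214). Both knockouts lay below both wild types. Outside the hepatocyte spots the embryos were closer, at 23.6, 29.3, 18.1 and 25.1 CPM in the same order. Spleen levels were 5.59 and 4.19 without and 3.78 and 3.33 with the knockout (log2 difference -0.52, adjusted p = 0.243), and the difference between tissues did not pass (adjusted p = 0.0936).

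Gm9732, a predicted gene on chromosome 14 at 43275036 to 43306011, was the gene called at least 2-fold higher in the knockouts of both litters. It counted 10 and 11 UMIs in WT2 and WT4 and 33 and 130 in KO2 and KO4, or 0.688, 0.594, 3.58 and 7.53 as scaled CPM (log2 difference 3.05 ± 0.64, adjusted p = 0.00299). It was also higher in knockout spleen, at 10.7 and 9.99 against 3.77 and 4.03 in the wild types (log2 difference 1.42, adjusted p = 0.00455, with 13.0% of all genes passing in spleen). With the spleens alone it was 1.32 (adjusted p = 0.00174), and without the litter term of the fetal livers it did not pass (adjusted p = 0.256). Within 1 Mb of it, 51 of 73 annotated genes are predicted genes with Gm names. Transcripts were counted by probes, which could also bind near-identical copies, so the identity of the transcript is uncertain. A neighbour, 1700001F09Rik, chosen after its values were seen, read 0.688, 1.35, 2.82 and 6.604 (log2 difference 2.17 ± 0.63, adjusted p = 0.201). The other tested neighbours, Gm8104, Gm7324 and Ang6, were also highest in KO4, at 5.45, 5.10 and 0.985, and did not pass the test.

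**Figure D4:**
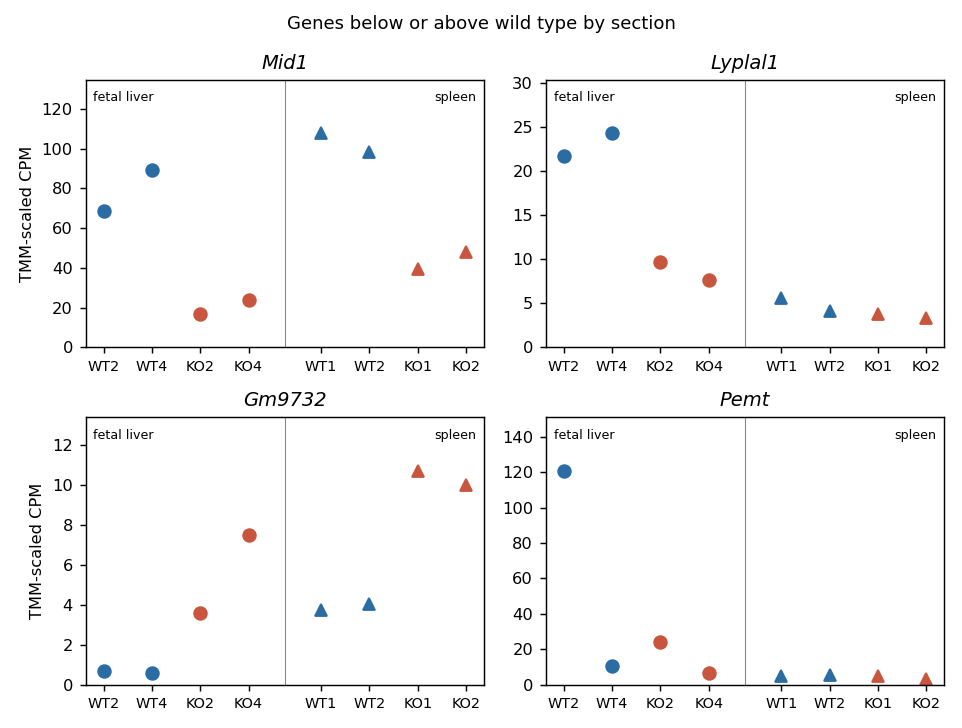
TMM-scaled CPM (vertical axes, from 0) of Mid1, Lyplal1, Gm9732 and Pemt in the hepatocyte spots of 4 fetal livers (circles) and in 4 spleens (triangles), blue for wild type and red for knockout. Mid1 is lower and Gm9732 higher in the knockouts of both tissues, while Pemt is high in WT2 fetal liver alone.

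Hepatocyte enzymes and transporters made up most of the remaining calls. Pemt, which makes phosphatidylcholine from phosphatidylethanolamine, stood at 120.8 in WT2, 10.7 in WT4, 24.3 in KO2 and 6.604 in KO4 (log2 difference -1.56 ± 0.28, adjusted p = 0.000109). Fbp1, an enzyme of gluconeogenesis, stood at 160.1, 0.917, 20.3 and 1.68 in the same order (-1.78 ± 0.35, adjusted p = 0.000826). Both were highest in WT2 by far and low in litter 4 whatever the genotype. The same pattern held for Cfhr2, a complement factor H-related gene (131.2, 0.486, 25.8 and 0.174), and for Rbp2, a cellular retinol-binding protein (102.3, 2.97, 8.996 and 3.59). It held for Aqp8, a water channel of the hepatocyte (194.3, 4.53, 17.1 and 6.37), and for Adh1, alcohol dehydrogenase (224.6, 3.45, 39.5 and 2.84). It also held for Gnmt, glycine N-methyltransferase (343.1, 6.85, 63.3 and 5.04), and for Uox, urate oxidase (193.4, 3.62, 32.0 and 4.69). Hsd3b3, Ggt1 and Ces1d, enzymes of steroid, glutathione and ester metabolism, followed with WT2 levels of 46.8, 78.5 and 57.7 and KO2 levels of 11.2, 13.2 and 17.9. Adh1 was not confined to hepatocyte spots. Outside them it read 1089 CPM in WT2, 37.1 in WT4, 12.1 in KO2 and 7.76 in KO4, without TMM factors. For 12 of the 26 genes both litter 4 sections were under 5 CPM, so these calls rest mainly on WT2 against KO2. The rule genes took 10.3% of UMIs in WT2 and 5.01% in KO2, and the part of this share in the enzyme differences was not tested.

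Agxt, alanine-glyoxylate aminotransferase, was the hepatocyte enzyme that was at least 2-fold lower in both litters. It stood at 45.2 in WT2, 4.21 in WT4, 21.8 in KO2 and 1.62 in KO4 (log2 difference -1.17 ± 0.28, adjusted p = 0.0194). The KO2 level still lay above WT4. In litter 4, Agxt counted 78 UMIs in WT4 and 28 in KO4. Its difference was -1.04 in litter 2 and -1.15 in litter 4, where the rule genes had medians of -1.20 and -0.47. The call held under 8 of the 14 alternatives with the block. Cpm, a membrane carboxypeptidase, did not overlap between genotypes, at 97.9 in WT2, 45.9 in WT4, 22.7 in KO2 and 31.3 in KO4 (log2 difference -1.32 ± 0.28, adjusted p = 0.00299). Nedd4l, a ubiquitin ligase that controls membrane channels, read 34.9, 10.0, 12.2 and 6.43, and was lower in both litters with overlapping groups. Neither gene was confined to hepatocyte spots. Outside them, without TMM factors, Cpm read 11.1 CPM in WT2, 110.9 in WT4, 60.3 in KO2 and 36.1 in KO4. Nedd4l read 45.9, 53.6, 72.4 and 31.6 there in the same order.

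The genes that chose the spots followed the same order and are given as description. Alb stood at 68013 in WT2, 5554 in WT4, 25338 in KO2 and 3634 in KO4, and Afp, the fetal albumin, at 15774, 4173, 11899 and 3062. All 10 rule genes were lower in the knockout in both litters, by a median of -1.20 in litter 2 and -0.47 in litter 4. Of the 36 other plasma protein genes, 28 were lower in both litters, against 23.5% of all genes tested, and 0 passed the test in edgeR, with 10 lower at an unadjusted p under 0.05 (3.28% of all genes). Azgp1, a lipid-mobilizing glycoprotein, came nearest at 175, 0.863, 32.6 and 1.80 (adjusted p = 0.0565). In the list of 35 metabolic genes, 1 fell, Fbp1 (0.109% of all genes), and 14 were lower at an unadjusted p under 0.05 (3.28%). The median difference of this list was -0.93 in litter 2 and 0.01 in litter 4. Cyp2d26, a cytochrome P450, read 507, 10.0, 136 and 6.43 (adjusted p = 0.0851), and Slc10a1, the bile acid importer, read 83.5, 1.51, 13.7 and 3.42 (adjusted p = 0.0982). None of 25 hepatocyte regulators passed, and Hnf4a, the main transcription factor of hepatocyte identity, read 172.1, 56.1, 101.6 and 44.7 (adjusted p = 0.955). These lists are tied to the rule, which selects spots by hepatocyte RNA.

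The same fit gave the difference between litters, which was far larger than that between genotypes. In litter 4, 2022 genes were lower (11.0%) and 528 higher (2.87%) than in litter 2. Of the 36 other plasma protein genes 34 were lower in litter 4, as were 22 of 35 metabolic genes and 19 of 20 genes of the C1q+ macrophage list. Of the 26 genes called for genotype, 18 were also lower and 2 higher in litter 4.

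The most abundant genes had the widest errors. The SE of the log2 difference was 1.44 for Alb and 2.02 for Hba-a2, against 0.28 for Mid1. The log2 difference of -1.02 in Alb was therefore not detectable in this fit (adjusted p = 0.955).

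Genes of other tissues formed the third pattern. Of 17 muscle genes 2 rose and 1 fell, and of 16 cartilage and bone genes 1 fell (0.0327% rose and 0.109% fell among all genes). At an unadjusted p under 0.05, 8 muscle genes were higher and 1 lower, beside 3.92% of all genes in either direction. Myh8 and Ckm, genes of skeletal muscle, stood at 34.7 and 18.4 in KO2 and at no more than 3.51 in the 3 other livers, and Krt15, a keratin of squamous epithelium, at 11.7 in KO2 and at most 1.62 elsewhere. Cym, which encodes the milk-clotting protease chymosin, stood at 25.04 in KO2 and under 1 in the other livers. Actg2, smooth muscle actin, stood at 27.9 in KO2 and 4.75 to 8.11 elsewhere. Col2a1, the collagen of cartilage, was high in WT4 alone, at 43.1 against 1.24 to 4.29. Hspa1b, an inducible heat shock gene, stood at 29.95 in WT4 and at 2.49 to 7.53 in the others.

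Most of these genes were abundant in the non-hepatocyte spots of the same sections. Outside the member spots, Cym read 1299 CPM in KO2, Myh8 781 and Ckm 416, and Col2a1 read 730 in WT4. Myh8 and Ckm were higher still outside the member spots of WT2, at 14139 and 8379 CPM, where member spots had little of either. When the member spots with over 0.2% of UMIs from other embryo tissue were left out (13 in WT2, 16 in WT4, 39 in KO2 and 8 in KO4), 17 genes were called, all among the 26. The 9 genes that no longer passed differed in how far they moved. Col2a1 went from -1.78 to -0.47, Krt15 from 2.98 to 2.08 and Ckm from 2.07 to 1.248, and Actg2 and Myh8 went from 1.26 to 1.03 and from 1.63 to 1.42. Tnnc1, Uox, Nedd4l and Ces1d kept nearly the same difference, at -1.28, -1.36, -1.07 and -1.24, with adjusted p of 0.0553 to 0.0657. Cym still passed, at 3.09. Over all spots with at least 1000 genes, the log2 differences of Ckm and Myh8 turned to -2.51 and -3.84. Tnnc1, a troponin of slow muscle and heart, was lower in both litters, at 266 in WT2, 27.4 in WT4, 84.0 in KO2 and 15.0 in KO4.

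The lists of the erythroid lineage held no called gene. None of 20 erythroid progenitor genes passed in edgeR, and 0 were at an unadjusted p under 0.05; the same was true of 18 erythroid cell genes, 20 genes of heme synthesis, 30 of the red cell membrane, 23 erythroid transcription factors and 37 of the cell cycle. Hba-a2, an adult alpha globin, read 109622 in WT2, 37384 in WT4, 121959 in KO2 and 26133 in KO4. Hbb-bs read 84930, 30581, 92865 and 22348. Hbb-bt read 33979, 26993, 38271.5 and 17356. For all 3 genes KO2 was the highest and KO4 the lowest liver, so that the genotypes overlapped. In litter 2 the median of these lists lay at -0.003 to 0.24, and in litter 4 at -0.34 to -0.59, against -0.01 and 0.10 for all genes. Cldn13, a claudin of erythroblasts, read 310.5, 138.0, 330.5 and 69.0 (log2 difference -0.45 ± 0.35).

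Of the 4 embryonic globins, Hba-x and Hbb-y were high in WT4 alone. Hba-x read 1619 in WT4, 92.4 in KO4, 46.4 in WT2 and 56.5 in KO2 (log2 difference -1.96 ± 0.54, adjusted p = 0.120). Hbb-y read 5347, 125.4, 28.8 and 70.0 in the same order (-2.12 ± 0.95, adjusted p = 0.955). Hbb-bh1 was high in both litter 4 livers, at 246.4 in WT4 and 156.6 in KO4 against 10.5 in WT2 and 29.0 in KO2. Hbb-bh2 stayed at 2.00 to 5.04, highest in KO4. In edgeR 0 of 4 embryonic globins passed, with 2 lower at an unadjusted p under 0.05 (3.28% of all genes). None of 5 adult globins, 23 genes of erythropoietin and kit signalling and 24 of reticulocyte maturation passed. At an unadjusted p under 0.05 there were 0, 2 and 1 (3.92% of all genes).

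**Figure D5:**
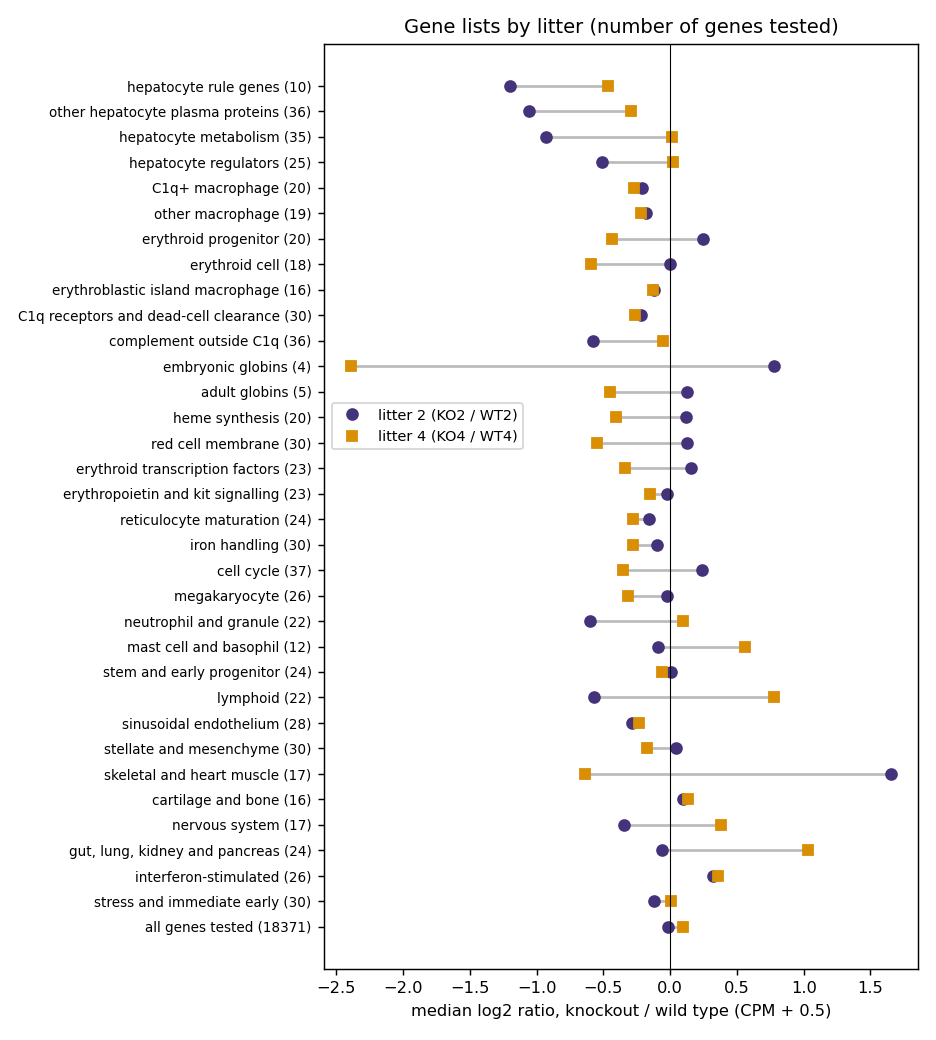
Median log2 ratio of knockout to wild type (horizontal axis) over the tested genes of each list, separately for litter 2 (circles) and litter 4 (squares), with the number of genes tested in brackets. Hepatocyte lists lie left of 0 in litter 2, erythroid lists lie left of 0 in litter 4 and at or right of it in litter 2, and the interferon-stimulated list lies right of 0 in both, at 0.32 and 0.36.

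Macrophage genes other than C1qa passed no test. In the list of 20 C1q+ macrophage genes, the first of the study's fetal liver marker table, 1 fell, C1qa itself (0.109% of all genes). Of this list, 13 genes were lower in both litters (23.5% of all genes). The list took 0.933% of UMIs in WT2, 0.278% in WT4, 0.645% in KO2 and 0.306% in KO4. Selenop and Apoe were its most abundant genes in each liver. Selenop read 5095 in WT2, 641 in WT4, 2336 in KO2 and 486 in KO4, and Apoe 2881, 526, 1525 and 504. The share is thus not a measure of macrophages alone, and the part of hepatocyte RNA in it was not tested. Other macrophage genes took 0.342%, 0.285%, 0.349% and 0.285%, and 0 of 19 passed or had an unadjusted p under 0.05. Of 16 genes of island macrophages 0 passed, with 2 lower and 1 higher at an unadjusted p under 0.05 (3.92% of all genes in either direction). Vcam1, which binds erythroblasts, read 197.0, 35.7, 125.8 and 22.9 (log2 difference -0.64 ± 0.30, adjusted p = 0.955), and Spic, the transcription factor of red pulp-type macrophages, read 12.4, 2.59, 16.9 and 4.63 (0.62 ± 0.31, adjusted p = 0.955). For both genes the groups overlapped because the litters lay apart.

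C1q receptors and genes of dead-cell clearance did not pass either. Of 30 tested, 0 were called, 3 were lower at an unadjusted p under 0.05 (3.28% of all genes) and 18 were lower in both litters (23.5%). Itgav, the integrin alpha V subunit of a receptor for dying cells, was nearest to the threshold at 52.3 in WT2, 26.8 in WT4, 31.1 in KO2 and 14.25 in KO4 (log2 difference -0.83 ± 0.25, adjusted p = 0.272). Mertk, an engulfment receptor kinase, read 74.2, 17.6, 47.1 and 13.1 (-0.55 ± 0.26, adjusted p = 0.955). The list of complement genes outside C1q, most of them made by hepatocytes, had 0 of 36 called. Of these, 5 were lower at an unadjusted p under 0.05 (3.28% of all genes). Cfhr2, the complement factor H-related gene that was called, was not a member of this list. C8b, a chain of the membrane attack complex, read 155.6, 7.07, 53.3 and 4.92 (-1.09 ± 0.29, adjusted p = 0.0833).

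In iron handling, 0 of 30 genes passed and 6 were lower at an unadjusted p under 0.05 (3.28% of all genes). Slc39a14, a zinc and iron importer of hepatocytes, read 114.1, 26.4, 50.6 and 17.2 (log2 difference -0.90 ± 0.27, adjusted p = 0.256). Interferon-stimulated genes lay the other way: 17 of 26 were higher in the knockout in both litters and 0 lower in both, beside 27.0% and 23.5% of all genes. Their median difference was 0.43, against 0.05 for all genes, and 0 passed the test. At an unadjusted p under 0.05, 4 were higher (3.92% of all genes in either direction). Irf7, a transcription factor of the interferon response, read 8.87 in WT2, 3.67 in WT4, 16.9 in KO2 and 6.37 in KO4 (0.87 ± 0.31, adjusted p = 0.632). Cxcl10, an interferon-induced chemokine, read 4.06, 6.26, 10.7 and 7.59 (0.82 ± 0.35, adjusted p = 0.955), all low levels. The median of the interferon-stimulated list was 0.90 without WT2 and 0.80 without KO4, but -0.07 without WT4 and -0.11 without KO2, in fits without the block.

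The other lineages had no call in nervous system, megakaryocyte, neutrophil, mast cell, stem cell, lymphoid, endothelial or mesenchymal genes. Sinusoidal endothelial genes had 17 of 28 members lower in both litters (23.5% of all genes) and 3 at an unadjusted p under 0.05 (3.92% of all genes). Neutrophil genes took 0.434% of UMIs in WT2, 0.308% in KO2 and 0.0566 to 0.0586% in litter 4. In the stress list, 1 of 30 features fell, Hspa1b (0.109% of all genes), and Egr1, an immediate early gene, read 64.4, 15.8, 27.2 and 9.67 (-0.99 ± 0.26, adjusted p = 0.0724). Among genes of gut, lung, kidney and pancreas, Six2, a factor of nephron progenitors, read 0.825, 4.21, 3.25 and 12.4 (1.71 ± 0.44, adjusted p = 0.0598).

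The neighbourhood of the deleted gene was checked as well. Of 59 genes annotated within 1 Mb of C1qa, 33 were tested and 0 passed, with 4 at an unadjusted p under 0.05 (3.92% of all genes). Their differences ran from -0.80 to 1.05 with a median of -0.14. Hspg2, the basement membrane protein perlecan at 137468751 to 137570630, was at the low end with 79.9 in WT2, 58.3 in WT4, 52.5 in KO2 and 29.3 in KO4 (-0.80 ± 0.27, adjusted p = 0.507).

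Against spleen, the knockout effect differed for 2342 of 19104 genes tested (12.3%) in a fit of all 8 cross sections, 1936 of them with the lower effect in fetal liver (10.1%). Litter was a term within fetal liver and not within spleen, whose litters the sources do not give. Without that term 0 genes passed (2651 at an unadjusted p under 0.05), and with 1 section left out 0 to 2525 passed, 0 of them without WT2 or without WT4 of fetal liver and 3 without KO4. Of the 26 genes called in fetal liver, 10 differed in effect between the tissues, beside 12.3% of all genes. The 26 were chosen by their fetal liver effect in the same counts, which favours a difference, so this count is a description. In spleen itself, 5 of the 26 were called (13.0% of all genes), and 3 in the same direction (C1qa, Mid1 and Gm9732). Gnmt and Hspa1b were higher in knockout spleen, with log2 differences of 2.60 and 1.18. Gnmt was high in knockout spleen 2 alone, at 8.12 against 0.806 to 1.33 in the other spleens. The spleen sums took all spots with at least 1000 genes, and other tissue in these sections was not set apart. The C1q genes also differed: C1qb read 49.4 and 42.5 in wild-type spleen and 64.2 and 113.1 in knockout spleen (log2 difference 0.94 ± 0.23, adjusted p = 0.00384), whereas it was not called in fetal liver. With the spleens alone 3886 of 18895 genes were called, C1qb, Gnmt and Hspa1b among them, and without the litter term of the fetal livers 0 were called in spleen (2208 at an unadjusted p under 0.05).

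Across spots, the C1q+ macrophage list without C1qa went with the erythroid cell list less closely among hepatocyte spots than among all spots with at least 1000 genes. Pearson r among hepatocyte spots was 0.27 in WT2, 0.32 in WT4, 0.26 in KO2 and 0.38 in KO4. Among all such spots it was 0.74, 0.69, 0.55 and 0.75. In both sets KO2 was the lowest and KO4 the highest of the 4 livers. The macrophage list also went with the hepatocyte rule genes. That r was 0.36 in WT2, 0.23 in WT4, 0.35 in KO2 and 0.20 in KO4 among hepatocyte spots. Among all such spots it was 0.77, 0.69, 0.59 and 0.73. All such spots include those that missed the rule, where genes of other organs took a larger share. These values are descriptions, since spots of a section share 1 library and depth. The most abundant genes of the macrophage list were Selenop and Apoe, an apolipoprotein, so hepatocyte RNA can enter this list. Its r with the rule genes therefore does not show that macrophages lay near hepatocytes.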

How the data were processed

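Per the labels and the methods of the study, Visium libraries were made from formalin-fixed sections and processed by the authors with Space Ranger on mm10. The deposited matrices give whole-number UMI counts for 19465 features in each spot, without normalization; the deposited barcode, gene and position tables hold other values (names and spot places). All 4 cross fetal livers came with in-tissue spots. Counts of member spots were summed per section (11217903 to 19489176 UMIs), which bounds the precision of low genes. Levels outside member spots are plain CPM. Spots share barcodes between slides by design (51 to 1402 per pair of sections). Replicate sections were not duplicates (chi-square per degree of freedom at least 107).

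Genotypes were compared with edgeR 4.0.16 (TMM, filterByExpr, quasi-likelihood F test) in R 4.3.3, with the litter number as block, which the study gives as the dam. The deviations of same-numbered sections from their genotype means correlated at 0.584 over 18371 genes. SEs were taken as the log2 difference over the root of F. Ratios within a litter used CPM plus 0.5. The prior degrees of freedom were infinite. Spleens were summed over spots with at least 1000 genes and joined in a second fit with genotype within tissue and litter within fetal liver. DESeq2 1.42.0, limma-voom 3.58.1 and other filters were alternatives. The scripts were tested on simulated data.

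The named genes were C1qa, C1qb and C1qc, the 25 calls with the smallest adjusted p, every list member past the threshold and otherwise members among the 3 with the smallest unadjusted p in a list (not all are printed), the 10 rule genes, and neighbours within 1 Mb; Ces1d, the call outside the 25, was named after its values were seen. Members and lists were chosen with earlier results of these data known. Of 35 lists, mitochondrial transcripts were not in the table and the sex genes passed no filter. The p-values rest on 1 section from each of 2 embryos per genotype. Symbols listed more than once (11) were kept apart.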

Additional observations from a re-analysis of the deposited data

Results flagged for a closer look

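For 11 genes the knockout effect in the hepatocyte spots of fetal liver differed from that in spleen, by the interaction term of the edgeR fit over 8 sections, in which litter was a term within fetal liver and not within spleen. The values are the log2 effect in fetal liver minus that in spleen. Only the genes called in fetal liver and C1qb and C1qc were looked at. The called genes were chosen by their fetal liver effect in the same counts, which favours a difference. The effect was lower in fetal liver for Gnmt, by -4.23 (adjusted p = 2.81e-05), and for Ces1d, by -5.50 (adjusted p = 0.0198). Gnmt read 8.12 in knockout spleen 2 and 0.806 to 1.33 in the other spleens, so its value rests mainly on that section. Ggt1, given below, read 17.3 in knockout spleen 2 and 9.03 to 10.8 in the other spleens. Ces1d had no UMI in wild-type spleen, so that its value depends on the prior count of the fit. It was also lower for Hspa1b at -2.61 (adjusted p = 0.000221), Nedd4l at -1.80 (adjusted p = 0.00109) and Adh1 at -1.72 (adjusted p = 0.00695). The same held for Ggt1 at -1.69 (adjusted p = 0.0228), C1qb at -1.42 (adjusted p = 0.00319), Cpm at -1.33 (adjusted p = 0.0116) and Pemt at -1.28 (adjusted p = 0.0369). It was higher in fetal liver for Ckm at 2.89 (adjusted p = 0.00227) and Gm9732 at 1.63 (adjusted p = 0.0495). Gm9732 was higher in the knockouts of both tissues. None of these differences passed without the litter term, where 0 of 19104 genes were called and 2651 were at an unadjusted p under 0.05. Replicate spread was estimated over both tissues together.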

How the results depend on the processing

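The number of genes called for genotype, 26 with the replicate block, was 1 with no replicate block, 4 with DESeq2, 73 with limma-voom, 54 with upper-quartile factors and 52 with library size alone (22 of these higher). It was 142 at a hepatocyte share of at least 2%, 157 over all spots with at least 1000 genes, and 17 without spots with other embryo tissue. The newer form of the edgeR quasi-likelihood fit, chosen after seeing the data, called 35. The remaining alternatives called 22 to 29. Under DESeq2 the 4 genes were C1qa, Mid1, Cfhr2 and Gm9732. Library size alone moved the median log2 difference of all genes from 0.05 to 0.31, and upper-quartile factors to 0.23. Leaving out 1 section, which allows no block because 3 sections leave no residual degree of freedom with it, gave 0 to 94 calls: 58 without WT2 (52 of them higher), 94 without WT4, 0 without KO2 (3857 at an unadjusted p under 0.05) and 0 without KO4 (137). The arm with 1 section is then assumed to vary like the other. The log2 difference of C1qa ran from -10.60 to -8.19 in these fits and it was not called without KO2 or KO4. The calls for the difference between fetal liver and spleen, 2342, were 0 with no replicate block and 0 to 2525 with 1 section left out, with 0 without fetal liver WT2 or WT4, 3 without KO4, 1053 without spleen wild type 1 and 579 without spleen knockout 2. With the block, the sign turned for Col2a1 at a share of 2% (0.31), for Ckm (-2.51) and Myh8 (-3.84) over all spots, and for C1qc with upper-quartile factors (0.035), library size alone (0.12) and a share of 2% (0.081). Leaving out 1 section turned the sign of genes that differ between litters, with log2 differences over the 4 fits of Cfhr2 -8.53 to 4.70, Rbp2 -4.04 to 1.06, Pemt -3.34 to 0.51, Fbp1 -5.60 to 3.55, Col2a1 -3.58 to 1.52, Aqp8 -4.06 to 1.35, Cym -2.97 to 7.32, Adh1 -5.35 to 2.60, Gnmt -5.14 to 2.31, Hsd3b3 -4.88 to 3.05, Ckm -0.12 to 3.68, Ggt1 -2.97 to 0.80, Agxt -3.94 to 1.45, Hspa1b -2.72 to 0.75, Tnnc1 -3.31 to 0.84, Uox -4.41 to 2.32, Myh8 -1.34 to 3.82, Ces1d -4.99 to 3.32, C1qb -2.02 to 1.08, C1qc -1.97 to 1.66, Azgp1 -5.63 to 4.29, C8b -4.06 to 2.03, Cyp2d26 -5.35 to 2.82, Slc10a1 -3.65 to 2.47, Egr1 -2.07 to 0.21, Hba-x -4.46 to 0.66, Hbb-y -5.79 to 1.74, Mertk -1.83 to 0.76, Vcam1 -2.37 to 1.05, Spic -0.71 to 2.03, Slc39a14 -2.05 to 0.35, Hnf4a -1.37 to 0.37, Cldn13 -1.72 to 0.57. The cause of these shifts was not tested, beyond that a left-out section unbalances the litters. Mid1, Lyplal1 and Gm9732 kept their direction in every alternative, but were not called without the block, nor in 3, 4 and 4 of the 4 fits with 1 section left out. In spleen, where other estimates of the spread were chosen after seeing the data, C1qa, Mid1, Gm9732, C1qb, Gnmt and Hspa1b kept their direction and were called with the spleens alone, and none was called without the litter term of the fetal livers. A C1qa count of 1 per knockout, and errors above 1 on the log2 scale for the most abundant genes, limit what the depth and the fit can show.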
